A study of Mus musculus with 16 samples.

Results

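The endocannabinoid system genes described here are 9 genes, Cnr1, Cnrip1, Dagla, Daglb, Napepld, Mgll, Abhd6, Abhd12 and Faah, chosen by symbol from 46403 gene symbols in the files. They cover 42 of 111706 transcripts. RNA was sequenced from the CA1 subfield of the hippocampus of 16 mice, 8 with the genotype Fmr1-KO and 8 with the genotype given as C57BL/6, called wild type (WT) here. All of them had served as yoked controls for active place avoidance, a spatial memory task, so no group is untouched by the apparatus. The labels name no age, sex or further treatment, and they do not say how the Fmr1 allele was made or whether the genotypes were littermates. Each library carries an animal label of its own, and a p-value measures the spread between these animals. Some labels share their number and differ in a letter, and what either marks is not stated. The series asks which CA1 transcripts differ with the loss of Fmr1.

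Endocannabinoids are lipid messengers that a postsynaptic neuron makes on demand and that act backward on the presynaptic terminal, where they lower transmitter release. The main one in the hippocampus, 2-arachidonoylglycerol (2-AG), is cut from diacylglycerol by diacylglycerol lipases and is removed by monoacylglycerol lipase and other hydrolases. The other, anandamide, is made by a phospholipase D among other routes and is removed by fatty acid amide hydrolase. Both act on the CB1 receptor, which in the hippocampus is most abundant on terminals of cholecystokinin interneurons and is also present on excitatory terminals. FMRP, the product of Fmr1, binds RNA and regulates translation, and endocannabinoid signalling downstream of group I metabotropic glutamate receptors is a known interest in its absence.

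Libraries held 515103 to 3275003 estimated counts (reads assigned to transcripts by a model, so they may be fractional). WT replicates 3 and 6 were the shallowest, with 878484 and 515103, and their 10 most abundant genes made up 10.3% and 31.6% of all counts, where other libraries reached at most 6.06%. Results that rest on them are given with and without them. The label check held: Fmr1 stood at 58.1 ± 19.4 CPM (counts scaled to library size with TMM normalisation) for the WT libraries and 22.2 ± 7.08 for the Fmr1-KO libraries (SD, n = 8 each), with no overlap. That held for 0.0434% of all genes and for 0 of the 9 members. Markers of excitatory neurons were high in every library, with sums between 6951 and 9336 CPM among WT libraries and between 7190 and 8170.5 CPM among Fmr1-KO libraries. Of all 11515 genes tested, 5977 had lower estimates in Fmr1-KO and 5538 higher. Markers of astrocytes, microglia, oligodendrocytes, their precursors, and endothelium and pericytes had lower estimates in Fmr1-KO in all of the 10, 10, 8, 5 and 10 genes tested. Their median log2 fold changes were −0.35, −0.34, −0.40, −0.55 and −0.67. Leaving out WT replicates 3 and 6 gave medians of −0.10, −0.21, −0.38, −0.21 and −0.39, with 7, 10, 8, 4 and 9 of these genes lower. GABAergic interneuron markers were lower in 7 of 8 genes tested (median −0.27), and in 5 of 8 without those libraries (median −0.12). Markers of cholecystokinin interneurons and of excitatory neurons were split over all 16 libraries, with 2 of 4 and 3 of 6 lower. None of these genes passed in edgeR. Over all 16 libraries 8 of the 43 glial, endothelial and pericyte genes, each lower, had an unadjusted p under 0.05 (18.6%, where 4.28% of all genes were lower at that p). In bulk tissue, fewer cells of a type and less RNA per cell cannot be told apart.

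The promoters of the receptor gene and of the 2-AG hydrolase gene Mgll are shown. Most Cnr1 counts fell on Cnr1-001, which begins at the window shown. Of the Mgll counts pooled over all libraries, 37.8% fell on Mgll-001, which begins at its window, the largest share of any 1 transcript. Mgll-003 (34.3%) and Mgll-201 (23.6%) begin downstream of it, so most Mgll counts did not fall on a transcript that begins there. A leading transcript that begins at such a window does not single out these genes, as other members have one too, such as Faah. In the annotation Cnr1-001 starts 12 bases before the RefSeq start of Cnr1, inside the window, and Mgll-001 at the RefSeq start of Mgll. Each is the 250 bases before the RefSeq start (GRCm38.p6, plus strand), with the sequence CACGTG, the core of an E-box, in capitals.
Cnr1, chr4:33924394-33924643: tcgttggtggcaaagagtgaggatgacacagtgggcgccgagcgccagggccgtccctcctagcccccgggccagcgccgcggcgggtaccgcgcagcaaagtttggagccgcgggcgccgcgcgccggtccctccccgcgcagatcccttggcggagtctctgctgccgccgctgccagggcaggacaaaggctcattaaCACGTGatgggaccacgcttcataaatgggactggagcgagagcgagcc
Mgll, chr6:88724162-88724411: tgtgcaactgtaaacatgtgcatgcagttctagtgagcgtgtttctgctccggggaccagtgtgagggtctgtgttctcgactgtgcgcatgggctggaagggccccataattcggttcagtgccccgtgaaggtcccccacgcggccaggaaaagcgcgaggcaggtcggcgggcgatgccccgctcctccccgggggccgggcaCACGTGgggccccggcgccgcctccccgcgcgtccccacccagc
Both windows are rich in CG, with 28 and 23 CG pairs against a median of 6 over 32851 windows of the same length. CACGTG, which reads the same on both strands, began 49 bases before the Cnr1 start and 44 bases before the Mgll start. It lay in 6.02% of all windows and in 2 of the 11 windows of the 7 members that the table holds (Dagla and Abhd12 are not in it). Those 2 are the windows shown, so they do not stand for the members as a whole. TATAAA, searched on both strands, was in 0 of those 11 and in 12.4% of all windows.

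None of the 9 genes passed the comparison of genotypes. All 9 kept enough counts to be tested, and 0 had an adjusted p under 0.05 by edgeR (quasi-likelihood, Benjamini-Hochberg over all genes), where 0.0174% of 11515 genes did. At an unadjusted p under 0.05 there was 1, Mgll, against 7.89% of all genes (4.28% lower and 3.61% higher in Fmr1-KO), so the count for the list is near the background. DESeq2 called 0.0955% of all genes and 0 of the 9, but it set no adjusted p for 6 of them, Mgll included, and Mgll was again the 1 with an unadjusted p under 0.05 (9.12% of all genes). Over all genes 5538 estimates were positive, that is higher in Fmr1-KO, and 5977 negative. Of the 9 members, 6 were positive and 3 negative. Their median log2 fold change was 0.04, beside −0.01 over all genes, and the median size of the difference without its sign was 0.11, beside 0.16 over all genes. Without WT replicates 3 and 6 these medians were 0.01 and 0.04, beside −0.0019 and 0.15, and again 0 passed (0.0169% of genes) and only Mgll had an unadjusted p under 0.05 (7.32%).

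**Figure D1:**
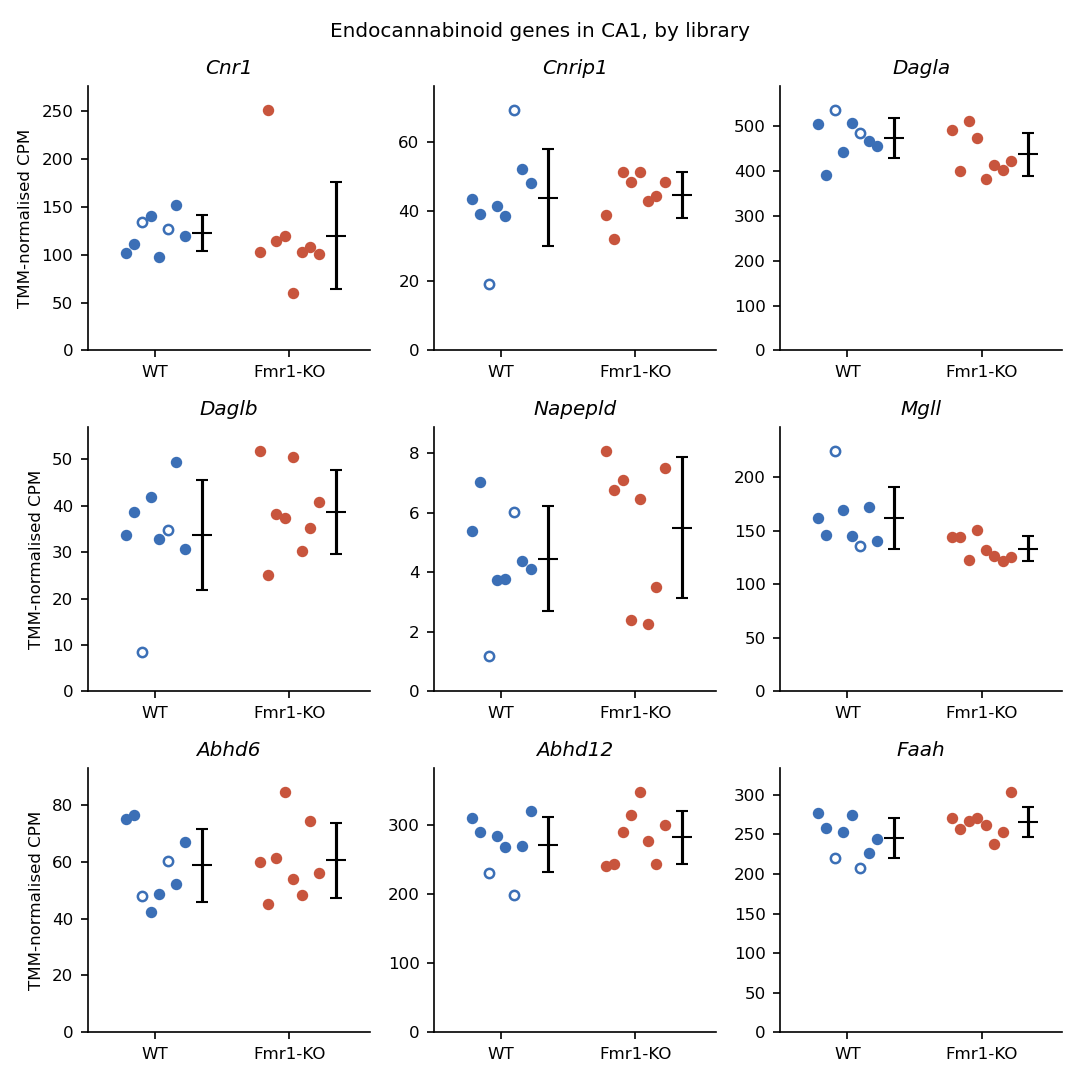
TMM-normalised CPM of the 9 genes in each library, WT in blue and Fmr1-KO in red, with open points for WT replicates 3 and 6 and bars for mean ± SD (n = 8 each). The genotypes overlap in every panel, and 1 Fmr1-KO library stands at 251 CPM for Cnr1.

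Cnr1 encodes the CB1 receptor. It lies on chromosome 4 at 33924593 to 33948831 (GRCm38, ENSMUSG00000044288). WT libraries ranged from 97.2 to 151.8 CPM with a median of 123, and Fmr1-KO libraries from 59.6 to 251 CPM with a median of 106. The genotypes overlapped, and 7 of 8 Fmr1-KO libraries lay below the WT median while the remaining one, replicate 2, lay above every other library. The means were 123 ± 19.0 and 119.95 ± 56.0 CPM (SD, n = 8 each), with a log2 fold change of −0.04 (SE 0.19, 95% interval −0.44 to 0.36, edgeR adjusted p = 0.970).

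That estimate depended on single libraries at both ends. Without Fmr1-KO replicate 2 the other 7 ranged from 59.6 to 119.8 CPM with a mean of 101 ± 19.6. The log2 fold change was then −0.27 (edgeR, unadjusted p = 0.0558, adjusted p = 0.670). The lowest Fmr1-KO library, replicate 5, held 59.6 CPM and the next 100.5 CPM. Without replicate 5 alone the log2 fold change was 0.06 (edgeR adjusted p = 0.938). Fmr1-KO replicate 2 held 372 estimated counts for Cnr1. Besides Cnr1, 1 gene, Gm28036, stood at least 1.5 times above every other library there at 50 CPM or more (a threshold and a gene chosen after the values were seen). Of the 7 markers of cholecystokinin interneurons, Sncg was at 0 in every library and Htr3a at 0 in this one. Their sum of 242 CPM lay within the 213 to 514 CPM of all Fmr1-KO libraries, and Cck itself, at 186 CPM, was lower than in the other Fmr1-KO libraries, whereas Adarb2, at 17.6 CPM, was higher than in them. The sum of general GABAergic markers, 652 CPM, was the highest in Fmr1-KO, where the range began at 354 CPM, and lay above every WT library but replicate 3, which held 786 CPM (418 to 599 CPM without WT replicates 3 and 6). Their part in the Cnr1 value was not tested.

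Cnrip1 encodes a small protein that binds the tail of the CB1 receptor. It lies on chromosome 11 at 17051586 to 17079371 (ENSMUSG00000044629). It ranged from 19.2 to 69.2 CPM in WT, with a median of 42.6, and from 32.2 to 51.4 CPM in Fmr1-KO, with a median of 46.45. Both extremes were WT replicates 3 and 6, and the other 14 libraries lay together between 32.2 and 52.1 CPM. The log2 fold change was 0.06 (SE 0.17, 95% interval −0.29 to 0.41, edgeR adjusted p = 0.950).

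The diacylglycerol lipases make 2-AG. Dagla, the lipase of adult synapses, lies on chromosome 19 at 10245265 to 10304877 (ENSMUSG00000035735). It ranged from 391 to 535 CPM in WT and from 382 to 511 CPM in Fmr1-KO, with medians of 475 and 417. The groups overlapped almost wholly, with 6 of 8 Fmr1-KO libraries below the WT median. Its log2 fold change was −0.11 (SE 0.08, edgeR adjusted p = 0.758), and the 95% interval of −0.29 to 0.06 corresponds to a change between −18.2% and 4.22%.

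Daglb, the second lipase of this kind, lies on chromosome 5 at 143464584 to 143505942 (ENSMUSG00000039206). It ranged from 8.40 to 49.3 CPM in WT and from 25.1 to 51.8 CPM in Fmr1-KO, with medians of 34.2 and 37.8. The lowest value, in WT replicate 3, rested on 7 estimated counts. The log2 fold change of 0.16 (SE 0.22, 95% interval −0.29 to 0.62, edgeR adjusted p = 0.891) was 0.04 without WT replicates 3 and 6. Within a library, Dagla made up 91.6% ± 2.68 of the summed TPM (transcript abundance scaled per length) of both lipases in WT and 90.1% ± 1.72 in Fmr1-KO (SD, n = 8 each).

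Napepld encodes the phospholipase D that releases anandamide from its membrane precursor. It lies on chromosome 5 at 21662901 to 21701396 (ENSMUSG00000044968). It was the lowest of the 9, from 1.201 to 7.05 CPM among WT and from 2.27 to 8.07 CPM among Fmr1-KO libraries, with medians of 4.24 and 6.61. A library held 1 to 24.4 estimated counts for it. The log2 fold change was 0.29 (SE 0.38, edgeR adjusted p = 0.886), and its 95% interval of −0.49 to 1.07 spans changes from −28.7% to 110.4%, and the direction was not resolved.

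Mgll encodes monoacylglycerol lipase, which removes most 2-AG in the brain. It lies on chromosome 6 at 88724412 to 88828360 (ENSMUSG00000033174). WT libraries ranged from 135 to 225 CPM with a median of 154, and Fmr1-KO libraries from 121.5 to 150.6 CPM with a median of 129. All 8 Fmr1-KO libraries lay below the WT median and 5 below the lowest WT library, while 4 WT libraries lay above the highest Fmr1-KO library. The means were 162 ± 28.8 and 133 ± 11.4 CPM (SD, n = 8 each). The log2 fold change was −0.28 (SE 0.10, 95% interval −0.49 to −0.07) with an unadjusted p of 0.0104, and it did not pass (edgeR adjusted p = 0.572).

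Among WT libraries replicate 3 held the highest value, 225 CPM, and the next held 172. Without WT replicates 3 and 6 the WT range was 140 to 172 CPM and the log2 fold change −0.22 (SE 0.09, edgeR adjusted p = 0.644). With each library left out in turn the estimate ran from −0.31 to −0.20. Library totals gave −0.24 and length-scaled TPM counts −0.22. Relative to the median of all genes, log2(TPM + 1) gave −0.22 and log2(TPM + 0.1) gave −0.28, whereas log2(TPM + 1) with no filter gave 0.06. The medians subtracted were 0.55, 0.62 and 0.27. Before that shift the log2(TPM + 1) estimate for Mgll is the same with and without the filter.

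Monoacylglycerol lipase is made by neurons and by astrocytes. Astrocyte markers summed to 5466 CPM in WT replicate 3, the library highest for Mgll, against 1643 to 2596 CPM in the Fmr1-KO libraries and 1848 to 2526 CPM in the other WT libraries. This was not particular to astrocytes. WT replicate 3 was also the highest library for marker sums of excitatory neurons (9336 CPM), GABAergic interneurons (786), microglia (534), oligodendrocyte precursors (219), and endothelium and pericytes (446). It was the lowest WT library for those of CA1, CA3, dentate gyrus and cholecystokinin cells. Some of these sums rest largely on 1 abundant gene, so they need not hold for each marker. Over the WT libraries Camk2a averaged 4096 CPM among excitatory markers and Slc1a2 1554 CPM among astrocyte markers. Cck averaged 312 CPM among cholecystokinin markers and Lct 157 CPM among dentate markers. Of the 10 astrocyte markers tested, 10 had lower estimates in Fmr1-KO, with a median of −0.35, and 7 did without WT replicates 3 and 6, with a median of −0.10. None was at 0 in all libraries. Their part in the Mgll difference was not tested.

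Abhd6 and Abhd12 encode serine hydrolases that take a smaller part of 2-AG. Abhd6, on the inner face of the postsynaptic membrane, lies on chromosome 14 at 8002902 to 8056763 (ENSMUSG00000025277). It ranged from 42.2 to 76.4 CPM in WT and from 45.2 to 84.4 CPM in Fmr1-KO, with medians of 56.2 and 58.0. Abhd12, which also degrades lysophosphatidylserine, lies on chromosome 2 at 150832493 to 150904741 (ENSMUSG00000032046). It ranged from 199 to 319 CPM in WT and from 241 to 347 CPM in Fmr1-KO, with medians of 276 and 282. For each gene 4 Fmr1-KO libraries lay above the WT median and 4 below. The log2 fold change of Abhd6 was 0.04 (SE 0.15, 95% interval −0.28 to 0.36, edgeR adjusted p = 0.966). That of Abhd12 was 0.04 (SE 0.10, 95% interval −0.17 to 0.25, edgeR adjusted p = 0.943).

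Faah encodes fatty acid amide hydrolase, which breaks down anandamide. It lies on chromosome 4 at 115967145 to 116017926 (ENSMUSG00000034171). It ranged from 208 to 277 CPM in WT and from 237.5 to 304 CPM in Fmr1-KO, with medians of 248.6 and 264.5. The lowest values, 208 and 220 CPM, were WT replicates 6 and 3, and 7 of 8 Fmr1-KO libraries lay above the WT median. The log2 fold change was 0.11 (SE 0.08, 95% interval −0.06 to 0.27, edgeR adjusted p = 0.761), or 0.06 without those libraries.

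**Figure D2:**
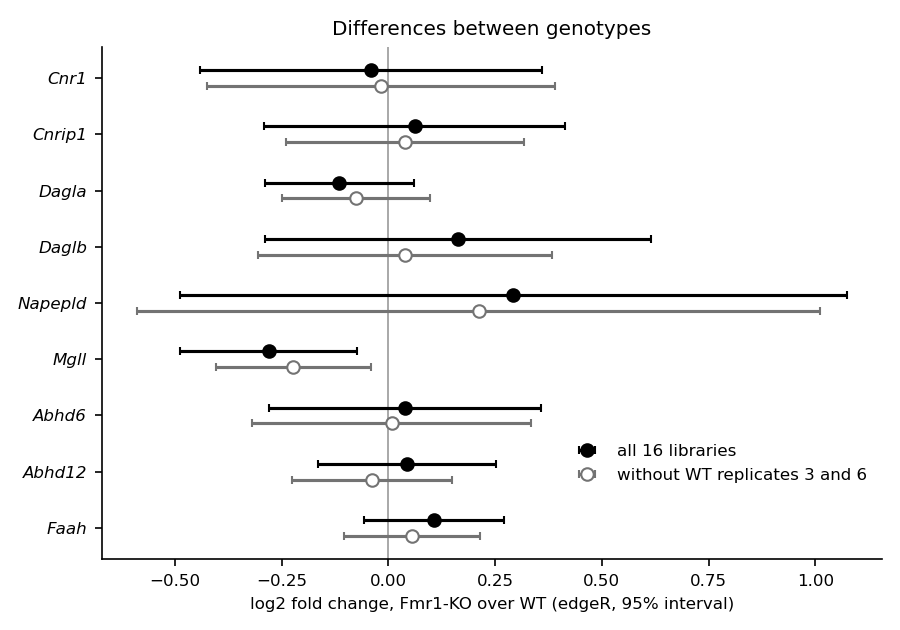
Log2 fold change of each gene, Fmr1-KO over WT, with 95% intervals from the edgeR fit, over all 16 libraries (filled) and without WT replicates 3 and 6 (open). The Mgll interval, −0.49 to −0.07, does not reach 0 before adjustment, and the other 8 cross it.

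The genes varied to different degrees between animals. Over the 14 libraries other than WT replicates 3 and 6, the coefficient of variation of the CPM was 7.25% for Faah, 10.3% for Dagla, 10.95% for Abhd12 and 11.6% for Mgll, where the estimated counts alone would give 3.89%, 2.98%, 3.75% and 5.27%. It was 13.2% for Cnrip1, 20.8% for Daglb and 21.8% for Abhd6, beside 9.52%, 10.3% and 8.26% from counting. Cnr1 varied by 36.004%, beside 5.88% from counting, and by 20.05% without Fmr1-KO replicate 2. Napepld varied by 37.9% with 29.2% from counting. The biological coefficient of variation that edgeR fitted for Faah, 0.123, was lower than that of all but 0.677% of genes, and those of Mgll and Dagla, 0.141 and 0.142, lay at percentiles 5.36 and 5.52. Faah, Mgll and Dagla stand at percentiles 93.4, 87.5 and 97.1 of mean CPM.

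Between genes, levels were compared per length, in TPM summed by gene. In WT the order was Abhd12 (245 ± 129 TPM), Faah (138 ± 64.1), Dagla (120 ± 54.9), Mgll (83.5 ± 44.1), Abhd6 (49.6 ± 29.0), Cnrip1 (41.6 ± 23.1), Cnr1 (38.9 ± 22.2), Daglb (11.7 ± 6.96) and Napepld (1.76 ± 1.19; SD, n = 8). The lowest 3 WT values were those of replicates 3, 5 and 6 for each of the 9 genes, for Abhd12 at 25.4, 130 and 160 TPM in replicates 6, 3 and 5 against 233 to 359 in the rest. Replicate 5 held 2747992 estimated counts and is not a shallow library. In replicates 6, 3 and 5 the 10 most abundant genes held 31.6%, 10.3% and 6.06% of the counts, the highest shares of the 16 libraries. Protein-coding transcripts held 58.4%, 80.7% and 87.6% there, the lowest shares, against 88.0% to 91.8% in the other libraries. The part of this make-up in the low TPM was not tested. Whether the TPM of these libraries were made as those of the others is not known either, so the WT means and SDs in TPM carry that limit.

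Of the 8 neighbouring pairs in that order, 5 differed within libraries by a two-sided exact sign-flip permutation test on log2(TPM + 1), each in 8 of 8 WT libraries (adjusted p = 0.0125 over the 8 pairs). Without WT replicates 3 and 6 the same 5 pairs kept their direction in 6 of 6 libraries. These were Abhd12 over Faah, Dagla over Mgll, Mgll over Abhd6, Cnr1 over Daglb and Daglb over Napepld. Faah and Dagla did not differ beyond their spread (Faah higher in 6 of 8, exact permutation adjusted p = 0.348), nor did Abhd6 and Cnrip1 (5 of 8, exact permutation adjusted p = 0.348) or Cnrip1 and Cnr1 (5 of 8, exact permutation adjusted p = 0.680). The order of Faah and Dagla turned with the measure: in CPM per kb of transcript, Dagla stood above Faah in 7 of 8 WT libraries (exact permutation adjusted p = 0.0208). Fmr1-KO libraries gave the same order of means, from Abhd12 at 297 ± 48.7 TPM to Napepld at 2.61 ± 1.08 TPM (SD, n = 8), but other pairs passed. There Faah stood above Dagla in 7 of 8 libraries (exact permutation adjusted p = 0.0375), and Mgll over Abhd6, also in 7 of 8, did not pass (exact permutation adjusted p = 0.0521). A difference of these calls between the genotypes was not tested. Among the 2-AG hydrolases, Mgll made up 22.4% ± 3.05 of their summed TPM in WT and 19.8% ± 5.80 in Fmr1-KO, Abhd6 13.3% ± 2.42 and 13.7% ± 2.74, and Abhd12 64.3% ± 3.61 and 66.6% ± 5.37 (SD, n = 8 each).

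**Figure D3:**
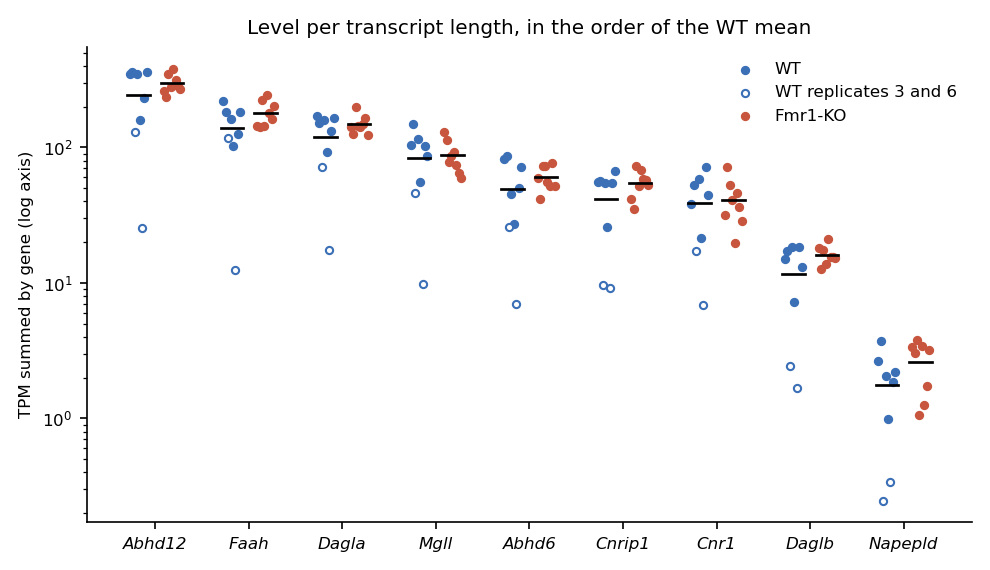
TPM summed by gene in each library on a log axis, in the order of the WT mean, with lines for the group means and open points for WT replicates 3 and 6. Levels run from 245 TPM for Abhd12 to 1.76 TPM for Napepld in WT, and those libraries are among the lowest 3 WT values for every gene.

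At the level of transcripts, 18 of the 42 were abundant enough to be tested, from 8 genes (all but Napepld), and 0 passed (edgeR, adjusted over 16772 transcripts, of which 0.00596% passed). At an unadjusted p under 0.05 there were also 0 of 18, against 3.91% of all transcripts. DESeq2 likewise called 0, and it set no adjusted p for 10 of the 18. The smallest unadjusted p, 0.101, was that of Faah-001. The estimates were higher for 10 and lower for 8.

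Dagla was read almost wholly from 1 transcript, the protein-coding Dagla-001, with 99.0% of its counts (484 ± 43.0 CPM for WT and 458 ± 50.5 CPM for Fmr1-KO). CPM of transcripts were scaled with the normalisation of the transcript fit, so they can exceed the CPM of the whole gene. The protein-coding Abhd12-001, Cnrip1-001 and Daglb-001 held 92.8%, 92.9% and 92.2%, and Abhd6-202 held 91.5%, beside 8.53% in the other tested Abhd6 transcript, ENSMUST00000026313.3, and 4.24% in Abhd12-003. In Faah the protein-coding Faah-001 held 56.8% of the counts, Faah-002 and Faah-005, both annotated as retaining an intron, held 14.7% and 12.9%, the processed transcript Faah-003 held 7.60%, and Faah-004 and Faah-008, which also retain introns, held 4.48% and 1.97%. In CPM, Faah-001 went from 138 ± 33.2 in WT to 163 ± 19.1 in Fmr1-KO (log2 fold change 0.24, SE 0.14), and Faah-005 from 42.6 ± 16.1 to 32.4 ± 15.002 (log2 fold change −0.40, SE 0.30). Neither passed. The protein-coding share of Faah was 53.3% ± 10.2 in WT, from 38.6% to 63.6%, and 58.5% ± 5.88 in Fmr1-KO, from 49.4% to 69.3% (SD, n = 8 each).

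For Mgll, 3 protein-coding transcripts carried the counts, Mgll-001 with 37.8%, Mgll-003 with 34.3% and Mgll-201 with 23.6% of those pooled over the libraries. Mgll-003 was above Mgll-001 in 5 of 8 Fmr1-KO and 2 of 8 WT libraries. Mgll-001 begins at the printed promoter (88724412), Mgll-201 at 88724704 and Mgll-003 at 88724828. In the GENCODE sequences of these identifiers and lengths, all 3867 bases of Mgll-003 are the end of the 3991 bases of Mgll-201, and the last 3517 of the 3676 bases of Mgll-001 are shared with both. Mgll-201 was at 0 in 7 libraries and at up to 126 CPM in WT replicate 7, where Mgll-003 had 1.59 CPM. Such splits between near-identical transcripts are uncertain. Mgll-003 and Mgll-201 together averaged 89.6 ± 32.0 CPM over WT and 80.5 ± 28.0 CPM over Fmr1-KO libraries, and Mgll-001 at 72.7 ± 30.2 and 54.1 ± 28.0 CPM (SD, n = 8 each). The Mgll-001 values rested on WT replicates 3 and 6, at 130 and 99.3 CPM: its log2 fold change was −0.41 with them and −0.12 without, where Mgll-003 and Mgll-201 together averaged 99.4 ± 24.3 CPM in the other 6 WT libraries. No single Mgll transcript carried the difference seen in the sum by a test of its own.

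Cnr1 counts fell on the protein-coding Cnr1-001 (78.3%) and Cnr1-003 (19.6%), which share a block of 5269 of their 5807 and 5761 bases, and Cnr1-003 was at 0 in 5 libraries. In Fmr1-KO replicate 2 the excess lay in Cnr1-001, at 256 CPM in the scaling of transcripts, where the gene stood at 251 CPM in its own. Napepld counts were split between 2 protein-coding transcripts at 0 in 9 and 7 libraries.

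The share of the leading transcript was compared for the 5 genes with at least 2 tested transcripts, by two-sided exact permutation tests adjusted over the 5. For Abhd6-202 it was 83.1% ± 21.2 in WT and 92.9% ± 9.39 in Fmr1-KO, and for Faah-001 53.3% ± 10.2 and 58.5% ± 5.88 (exact permutation, adjusted p = 0.659 for both). Without WT replicates 3 and 6 the WT share of Abhd6-202 was 90.2% ± 11.4, and the difference went from 9.87 to 2.77 percentage points. The others, Abhd12-001, Mgll-001 and Cnr1-001, had adjusted p of 0.706, 0.718 and 0.773 in the exact permutation test. The groups overlapped in all 5.

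**Figure D4:**
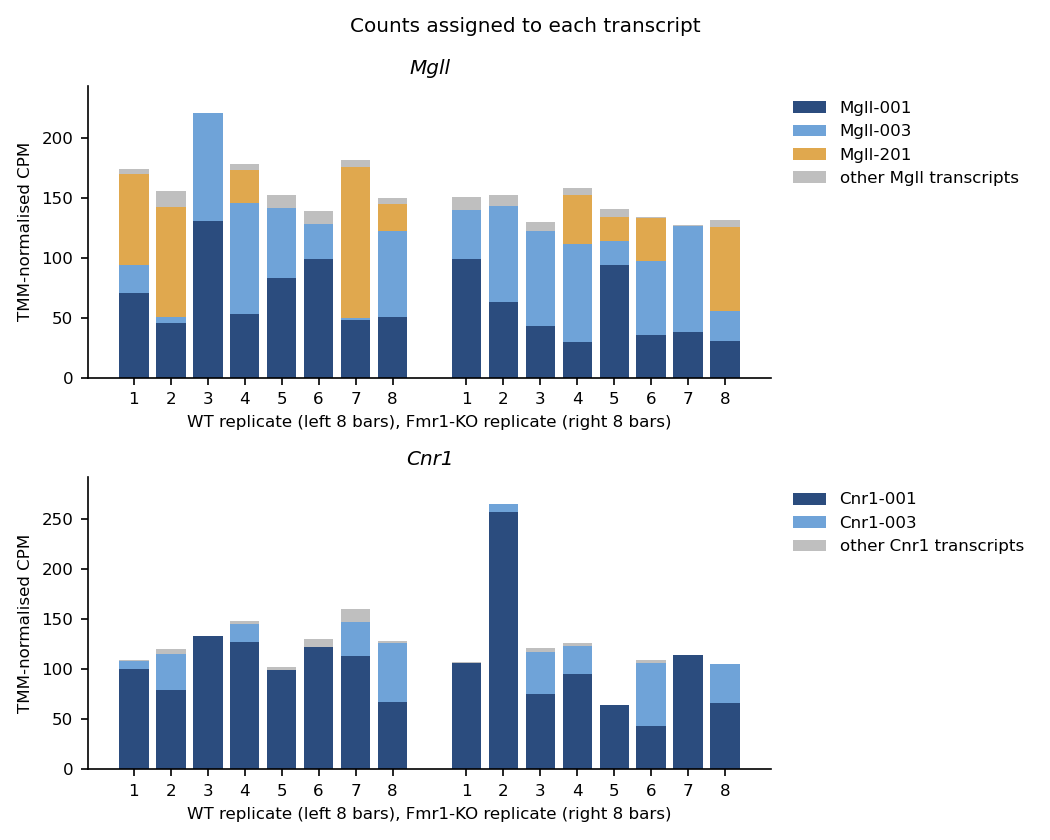
Stacked TMM-normalised CPM assigned to each transcript of Mgll and Cnr1, 1 bar per library, WT on the left and Fmr1-KO on the right. The split between Mgll-003 and Mgll-201 swings from library to library, with Mgll-201 at 0 in 7 of them, and Fmr1-KO replicate 2 stands out for Cnr1-001.

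The wider pathway was read from a list of 51 genes upstream and downstream of these 9, of which 38 were tested. None of the 38 passed (edgeR). At an unadjusted p under 0.05 there were 3, 7.89% as among all genes, each with a higher estimate in Fmr1-KO. Without WT replicates 3 and 6 there were 4 of 38, where 7.32% of all genes were under it. Estimates were positive for 21 and negative for 17, beside 5538 and 5977 over all genes. The median was 0.10 on the log2 scale, or 0.07 without WT replicates 3 and 6, beside −0.01 over all genes.

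Upstream of diacylglycerol stand the receptors coupled to Gq and phospholipase C beta. Of 9 tested, 6 were higher by estimate, with a median of 0.16. The lowest p was that of Plcb1, the phospholipase C that hippocampal muscarinic and metabotropic receptors drive, at 275 ± 39.3 CPM in the WT and 319 ± 37.4 CPM in the Fmr1-KO libraries (0.22 on the log2 scale, edgeR adjusted p = 0.624). Next was Chrm1, the M1 muscarinic receptor, at 355 ± 54.0 and 399 ± 38.8 CPM (0.16, edgeR adjusted p = 0.681).

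Other enzymes of endocannabinoid synthesis or breakdown were split, 4 higher and 5 lower of 9 tested (median −0.04). The lowest p were those of the hydrolase gene Abhd2 (0.17, edgeR adjusted p = 0.717) and the phospholipase gene Ddhd2 (0.16, edgeR adjusted p = 0.747). All 3 lipid carrier genes tested had lower estimates (median −0.30), among them Scp2 at −0.38 (edgeR adjusted p = 0.657) and Fabp5, a fatty acid binding protein that carries anandamide, at −0.30 (edgeR adjusted p = 0.843). None of the 6 other receptor genes, Cnr2, Gpr55, Gpr18, Trpv1, Ppara and Pparg, was abundant enough to be tested. Their summed level was at most 5.58 CPM in Fmr1-KO and at most 4.68 CPM in WT without replicates 3 and 6 (24.1 CPM in WT replicate 6). Cnr2, the CB2 receptor, averaged 0.0596 CPM over the WT libraries and 0.178 CPM over the others.

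The effectors and regulators of CB1 were higher by estimate in 11 of 17 (median 0.10, also without WT replicates 3 and 6). The CB1 receptor opens G protein-gated potassium channels and closes presynaptic calcium channels. The lowest p in this group were those of Kcnj9, a subunit of the former (79.7 ± 15.3 CPM for WT and 104 ± 12.7 CPM for Fmr1-KO libraries, 0.37 on the log2 scale, edgeR adjusted p = 0.541), and Cacna1b, the N-type calcium channel (200.97 ± 37.3 and 249.06 ± 35.9 CPM, 0.31, edgeR adjusted p = 0.581; SD, n = 8 each).

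**Figure D5:**
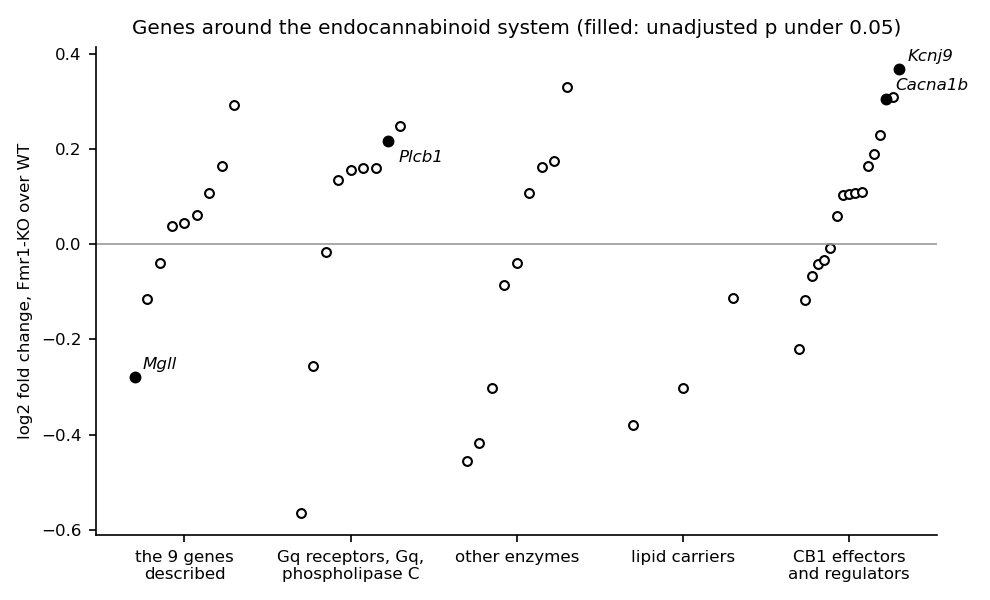
Log2 fold change of each tested gene, Fmr1-KO over WT, for the 9 genes and for the 4 groups of the wider list with tested members. Filled points had an unadjusted p under 0.05 (Mgll, Plcb1, Kcnj9 and Cacna1b), and none passed after adjustment.

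The genes whose levels followed a member most closely were read over the 14 libraries other than WT replicates 3 and 6, as Pearson correlations of log2(CPM + 1) among 7090 other genes of at least 20 CPM. For Cnr1 the closest were Btg2, an immediate early gene (r = 0.79, Spearman rho = 0.94), Zfyve16 (r = 0.79, rho = 0.49) and 4933427D14Rik (r = 0.78, rho = 0.54), and the most opposed was Rnf5 (r = −0.86, rho = −0.45). Without Fmr1-KO replicate 2 these r were 0.76, 0.77, 0.66 and −0.73. For Mgll the closest were Mrps17 (r = 0.82), the scaffold gene Dlgap3 (r = 0.80) and P4ha1 (r = 0.80), and the most opposed was L3mbtl2 (r = −0.87). The 14 libraries differ in genotype and in depth, and these genes are the extremes of 7090, so no test is given.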

How the data were processed

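The authors deposited 1 table per library with estimated counts, TPM, length and effective length of 111706 transcripts, in the kallisto column layout per the file headers. FastQC, cutadapt, kallisto and DESeq2 are listed in the submitters' processing notes, in no stated order. Their versions and the build were not given in the sources used. Deposited estimated counts divide reads between similar transcripts by a model, and deposited TPM are scaled per effective length within a library, without depth.

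Estimated counts were summed by gene symbol and rounded. Genes and transcripts were tested with edgeR 4.0.16 (quasi-likelihood, TMM, filterByExpr with a minimum count of 10, no covariate, threshold 0.05) in R 4.3.3, over all 11515 genes or 16772 transcripts, with Benjamini-Hochberg adjustment. The standard error is the log2 fold change divided by the root of F. Exact tests used SciPy 1.17.1, and the function was tested on simulated data. Positions are from GENCODE M21 (GRCm38), joined by gene identifier, and promoters from RefSeq (GRCm38.p6).

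Alternatives were DESeq2 1.42.0, its size factors, library totals, 2 filters, 3 fits of log2 TPM and 2 of limma-voom in limma 3.58.1, counts scaled from TPM by length, the label letter as covariate, a threshold of 0.1, and libraries left out. Replicate numbers follow accession order. Members and lists were chosen with earlier results of these data known. Named genes are all members, tested member transcripts, Fmr1, the 2 genes of lowest p per pathway group, and the genes most like Cnr1 and Mgll. Besides these, the other receptors are named as a whole list. Gm28036, Cck, Adarb2, Htr3a, Sncg, Cnr2, Camk2a, Slc1a2 and Lct were singled out after their values were seen.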

Additional observations from a re-analysis of the deposited data

Results flagged for a closer look

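In 3 of 18 sets of 8 libraries (9 genes in each genotype), the extreme library lay farther from its neighbour than Dixon's 95% limit allows, and about 1 set in 20 does so by chance. Cnr1 stood at 251 CPM in Fmr1-KO replicate 2, with the next Fmr1-KO library at 119.8 CPM. Mgll stood at 225 CPM in WT replicate 3, with the next WT library at 172 CPM. Daglb stood at 8.40 CPM in WT replicate 3, with the next WT library at 30.8 CPM. WT replicate 3 is the second shallowest library of the series.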

How the results depend on the processing

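Across 30 alternatives for genes and 3 for transcripts, 0 members passed, and the smallest adjusted p of a member was 0.282 (Mgll, limma-voom with quality weights; DESeq2 set none for 6 members). No leading-transcript share passed in any of the settings run, and 0 genes of the wider list passed without WT replicates 3 and 6, an alternative added after seeing the data. Without those libraries 0 neighbouring pairs in the order by TPM passed, against 5, but 6 libraries allow no exact p under 0.031 (0.05 adjusted), so none could; the 5 pairs held in 6 of 6. No paired analysis was possible because the labels give no number shared between genotypes.

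In log2 TPM the median of all genes moved by 0.55 with a pseudocount of 1, 0.62 with 0.1 and 0.27 with no filter, so values are relative to it, while the p of these fits tests the difference before that shift. Signs changed for estimates near 0 and also for Mgll, Napepld and Dagla (main values −0.28, 0.29 and −0.11). For Mgll and Dagla this was only in log2(TPM + 1) with no filter. There the median subtracted was 0.27 in place of 0.55, while the estimate of each gene before that shift is the same with and without the filter. For Napepld the cause was not tested. Relative log2 TPM gave −0.0923 for Napepld (pseudocount 1), −0.0194 for Abhd12 and −0.0343 for Abhd6 (0.1), and 0.27 for Dagla and 0.0592 for Mgll (no filter). Length-scaled TPM counts gave −0.00803 for Abhd12 and −0.0131 for Abhd6. Quality weights gave −0.0266 for Abhd12, −0.0512 for Abhd6 and −0.0625 for Napepld.

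Without WT replicates 3 and 6 the signs turned for Abhd12 (−0.0387), Abhd12-001 (−0.0575), Abhd12-003 (0.00187), Cnr1-001 (0.0569), Cnr1-003 (−0.19), Faah-002 (−0.0859), Faah-003 (−0.0403) and Faah-008 (0.25), and shares differed by 2.01 (Cnr1-001), 2.37 (Mgll-001) and −0.55 (Abhd12-001) percentage points. Library totals gave 0.00725 for Cnr1-001, and its share of TPM differed by 7.56 points. With 1 library left out, Abhd6 ran from −0.0409 to 0.11, Abhd12 from −0.00432 to 0.0816, Cnr1 from −0.27 to 0.0616 and Cnrip1 from −0.0220 to 0.14. Mgll kept an unadjusted p under 0.05 in 26 of 31 settings. It did not with library totals (−0.24), length-scaled counts (−0.22) or the 3 TPM fits (−0.22, −0.28 and the reversed 0.0592). The p of those TPM fits tests the difference before the shift, not these values. The settings are refits of the same libraries, many with some left out, and the threshold of 0.1 repeats the main fit, so they are not independent. Napepld held at most 24.4 estimated counts in a library, which limits its precision.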
